A study of Mus musculus with 12 samples.

Results

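The 10 genes described here, Sh2d4a, Gatm, Mettl8, Gpc4, Sfrp4, Adgrg7, Gdpd1, C1qtnf12, Prelid2 and Aldh1a7, were picked from 30702 mouse genes with a usable array feature because their transcripts lay far lower on a selenium-deficient diet. The choice used the deficient minus adequate difference in proerythroblasts or its mean over both stages, so those differences are given as a description of the choice and are not tested. All 10 were above the level filter that left 20128 genes to compare, which required a log2 value over 5.3 (the median of all values in the table) in at least 3 arrays. Gpc4 exceeded it in 6 of the 12 arrays, and Adgrg7 in 5, all of them proerythroblast arrays.

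Erythroblasts, the nucleated precursors of red cells, had been sorted from male mouse spleens. Phenylhydrazine, which breaks down circulating red cells and makes the spleen produce new ones, had been given 3 days earlier. The mice had received their diet for 3 months beforehand. There were 4 groups of 3 arrays: deficient basophilic erythroblasts, adequate basophilic erythroblasts, deficient proerythroblasts and adequate proerythroblasts. All 4 groups had been given phenylhydrazine, so no group shows the unstressed spleen, and neither the strain nor the number of mice behind an array is stated in the labels.

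Selenium is built into selenoproteins as selenocysteine, and several of these enzymes remove peroxides. The proerythroblast is the earliest erythroblast recognised by its form, and the basophilic erythroblast is the next stage, in which haemoglobin synthesis takes over. The 10 genes belong to no single pathway. Gatm and Mettl8 encode mitochondrial enzymes, and Prelid2 belongs to a family of mitochondrial lipid carriers. Gpc4, Sfrp4, Adgrg7 and C1qtnf12 encode surface or secreted proteins, Gdpd1 and Aldh1a7 encode metabolic enzymes, and Sh2d4a encodes a protein with an SH2 domain, the module that binds phosphorylated tyrosine.

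The arrays were marked by their erythroid genes. The mean log2 level of 15 erythroid identity genes lay between 10.57 and 11.19 in deficient basophilic arrays and between 10.84 and 11.27 in adequate basophilic arrays. It lay between 10.60 and 10.77 in deficient proerythroblast arrays, against 9.91 to 10.24 in adequate proerythroblast arrays. The median of the array's background probes ran from 3.73 to 4.70 in deficient basophilic arrays and from 3.63 to 4.19 in adequate basophilic arrays, and the highest in each group was replicate 2. It stayed between 3.31 and 3.53 in the 6 proerythroblast arrays. Counts below were also taken without replicate 2 of both basophilic groups. Replicate 3 of the deficient basophilic group carries a description that names proerythroblasts, while its title and cell type label name basophilic erythroblasts, and it was kept there. Nothing states that the arrays of a group came from separate animals, so each p-value measures the spread between these arrays, which may be technical.

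Promoter sequence was in the RefSeq table (GRCm38.p6) for 6 of the 10 genes, and 3 are shown: Gatm, with the largest fall over both stages, Mettl8, with the most KLF letter matches, and Adgrg7, with the one GATA match. Each line gives the 250 bases before the listed start site, 5′ to 3′ on the strand of the gene, here always the minus strand. The start site of Mettl8 lies inside the gene span given below, as does that of Adgrg7. Capitals mark AGATAA, a letter pattern bound by GATA factors, or CCNCNCCC, one bound by KLF factors, searched on both strands. Gatm lies at chr2:122611278-122611527, Mettl8 at chr2:71055607-71055856 and Adgrg7 at chr16:56795859-56796108.
Gatm: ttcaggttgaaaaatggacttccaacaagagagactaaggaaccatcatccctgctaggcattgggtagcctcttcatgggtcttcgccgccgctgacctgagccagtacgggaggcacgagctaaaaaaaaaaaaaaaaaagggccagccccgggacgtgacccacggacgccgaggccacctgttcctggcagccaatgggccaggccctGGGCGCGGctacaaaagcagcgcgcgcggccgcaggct
Mettl8: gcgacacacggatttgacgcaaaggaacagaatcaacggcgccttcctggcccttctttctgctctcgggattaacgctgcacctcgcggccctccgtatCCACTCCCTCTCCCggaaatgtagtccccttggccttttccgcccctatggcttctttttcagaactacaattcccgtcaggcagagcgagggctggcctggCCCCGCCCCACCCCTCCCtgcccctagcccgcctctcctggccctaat
Adgrg7: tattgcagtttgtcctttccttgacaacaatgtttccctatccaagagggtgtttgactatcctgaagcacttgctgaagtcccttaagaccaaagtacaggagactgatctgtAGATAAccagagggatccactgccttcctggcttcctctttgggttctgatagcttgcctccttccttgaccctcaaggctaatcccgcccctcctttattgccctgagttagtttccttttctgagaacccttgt

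Among the 6 promoters, AGATAA occurred in 1 (Adgrg7, starting 136 bases before the start site), against 9.99% of all 32841 promoters in the table. CCNCNCCC occurred in 3 (Gatm, Mettl8 and Gpc4), against 45.9% of all promoters. Mettl8 held 5 matches to it, some of them overlapping, Gpc4 held 3 and Gatm held 1. The E-box CANNTG occurred in 4, against 66.2% of all promoters. Neither TGACNNNGC, the core of the antioxidant response element, nor AACNGTT, a MYB pattern, was found in the 6 windows. Of all promoters, 10.2% held TGACNNNGC and 3.8% held AACNGTT. A match is a description of letters and not a binding site.

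Every one of the 10 genes had its highest mean in adequate proerythroblasts, and in each the 3 deficient proerythroblast arrays lay below the 3 adequate ones. That separation was part of the choice. Over all tested genes, 15.6% had deficient proerythroblast arrays that lay wholly below the adequate ones, and 2.76% passed limma's adjusted p of 0.05 as lower. By the mean over both stages all 10 passed as lower, as did 1.6% of all tested genes. The deficient minus adequate log2 differences of the 10 genes in proerythroblasts ran from -2.94 to -1.48 with a median of -1.92, beside a median of 0.02 for all tested genes. In bulk RNA of this kind, fewer cells of a type and less RNA per cell cannot be told apart.

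**Figure D1:**
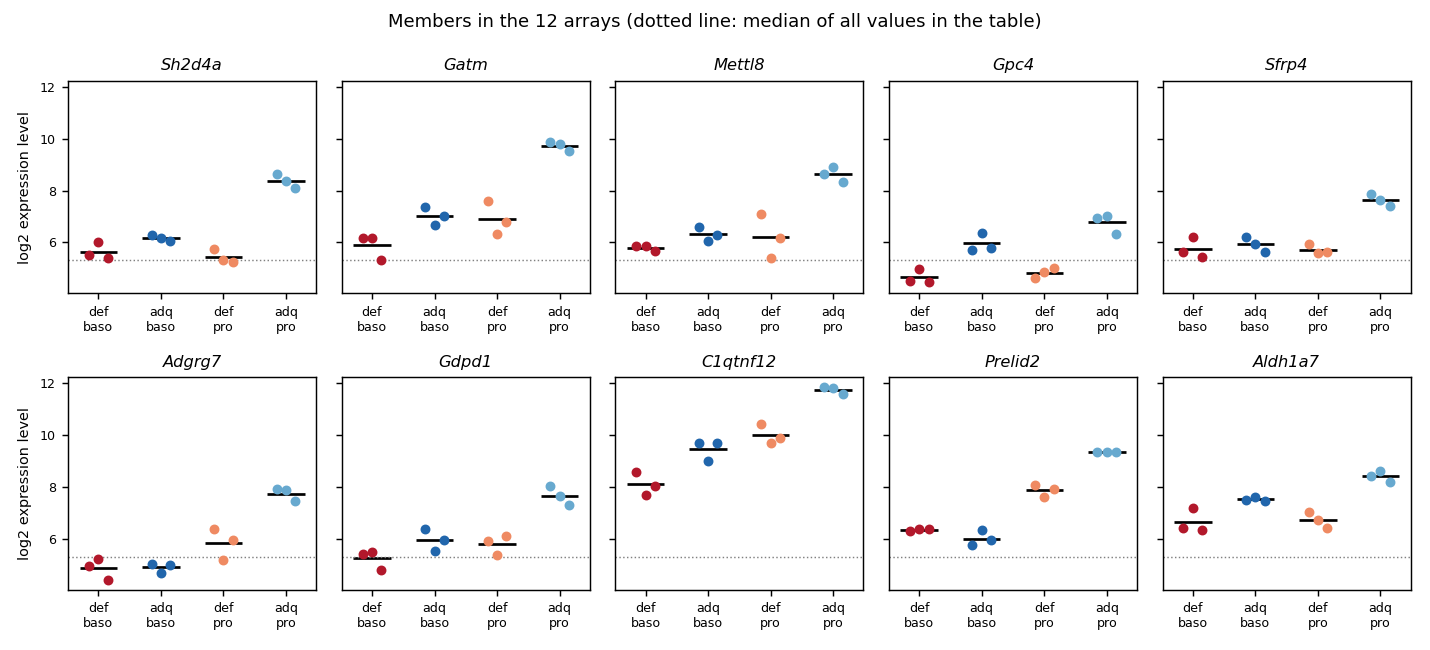
Deposited log2 expression level (vertical axis) of the 10 genes in each of the 12 arrays, with 1 point per array, a black line at each group mean and a dotted line at 5.3, the median of all values. In every panel the adequate proerythroblast arrays (adq pro, right) lie above the deficient proerythroblast arrays (def pro), and in 7 panels the deficient basophilic arrays (def baso, left) also lie below the adequate basophilic arrays (adq baso).

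Gatm encodes glycine amidinotransferase, which makes guanidinoacetate from arginine and glycine in the first step of creatine synthesis (chromosome 2, 122594473 to 122611277). Its log2 levels were 6.18, 6.15 and 5.31 in deficient basophilic erythroblasts and 7.38, 6.66 and 7.03 in adequate basophilic erythroblasts. In deficient proerythroblasts they were 7.61, 6.32 and 6.79, against 9.89, 9.79 and 9.54 in adequate proerythroblasts. Neither stage had an overlap between the diets. The deficient minus adequate difference was -2.83 ± 0.324 (SE) in proerythroblasts and -1.14 ± 0.324 in basophilic erythroblasts.

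Mettl8 encodes a methyltransferase that modifies cytosine in mitochondrial transfer RNAs (chromosome 2, 70964561 to 71056388). Its levels were 5.85, 5.85 and 5.65 in deficient basophilic erythroblasts and 6.60, 6.07 and 6.30 in adequate basophilic erythroblasts. They were 7.08, 5.38 and 6.17 in deficient proerythroblasts, against 8.64, 8.92 and 8.34 in adequate proerythroblasts. The deficient proerythroblast arrays spread over a wide range (SD 0.851) but did not reach the adequate ones. The difference was -2.42 ± 0.334 in proerythroblasts and -0.54 ± 0.334 in basophilic erythroblasts.

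Prelid2 carries the domain of the PRELI proteins, whose better known member Prelid1 moves phosphatidic acid between the mitochondrial membranes (chromosome 18, 41875696 to 41951194). In deficient basophilic erythroblasts it measured 6.31, 6.37 and 6.38, and in adequate basophilic erythroblasts 5.74, 6.34 and 5.94. In deficient proerythroblasts it measured 8.09, 7.62 and 7.91, against 9.35, 9.37 and 9.34 in adequate proerythroblasts. It was the single gene of the 10 whose deficient basophilic mean was above the adequate one, and those arrays overlapped. The difference was -1.48 ± 0.164 in proerythroblasts and 0.35 ± 0.164 in basophilic erythroblasts.

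Gpc4 encodes glypican-4, a heparan sulfate proteoglycan held at the cell surface by a lipid anchor (chromosome X, 52051007 to 52164923). Its levels in deficient basophilic erythroblasts were 4.51, 4.97 and 4.46, and in adequate basophilic erythroblasts 5.70, 6.37 and 5.80. Deficient proerythroblasts had 4.63, 4.86 and 5.01, against 6.95, 7.01 and 6.34 in adequate proerythroblasts. All 6 deficient arrays lay under the median of the table, and all 6 adequate arrays above it. The diet difference was -1.93 ± 0.231 in proerythroblasts and -1.31 ± 0.231 in basophilic erythroblasts.

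Sfrp4 encodes a secreted protein with the Wnt-binding domain of the frizzled receptors (chromosome 13, 19623175 to 19632825). It measured 5.62, 6.20 and 5.44 in deficient basophilic erythroblasts and 6.22, 5.92 and 5.61 in adequate basophilic erythroblasts. Deficient proerythroblasts measured 5.93, 5.57 and 5.64, against 7.86, 7.65 and 7.41 in adequate proerythroblasts. The 9 arrays outside adequate proerythroblasts fell in 1 band, from 5.44 to 6.22. The diet difference was -1.93 ± 0.220 in proerythroblasts and -0.16 ± 0.220 in basophilic erythroblasts.

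Adgrg7, listed on the array as Gpr128, encodes an adhesion G protein-coupled receptor with no settled ligand (chromosome 16, 56724609 to 56796006). Its levels were 4.94, 5.22 and 4.40 in deficient basophilic erythroblasts and 5.02, 4.69 and 5.00 in adequate basophilic erythroblasts. They were 6.37, 5.17 and 5.96 in deficient proerythroblasts, against 7.93, 7.87 and 7.44 in adequate proerythroblasts. The basophilic arrays of both diets overlapped and lay under 5.3. The diet difference was -1.91 ± 0.290 in proerythroblasts and -0.05 ± 0.290 in basophilic erythroblasts.

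C1qtnf12, listed on the array as Fam132a, encodes adipolin, a secreted protein of the C1q and tumour necrosis factor related family (chromosome 4, 155962312 to 155966629). Deficient basophilic erythroblasts had 8.56, 7.70 and 8.05, and adequate basophilic erythroblasts 9.71, 9.01 and 9.70. Deficient proerythroblasts had 10.44, 9.71 and 9.91, against 11.86, 11.83 and 11.61 in adequate proerythroblasts. The diets did not overlap at either stage, and the differences were close, at -1.75 ± 0.260 in proerythroblasts and -1.37 ± 0.260 in basophilic erythroblasts.

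Gdpd1 encodes a phosphodiesterase that releases lysophosphatidic acid and acylethanolamines from lysophospholipids (chromosome 11, 87033794 to 87074137). Its levels in deficient basophilic erythroblasts were 5.41, 5.50 and 4.81, and in adequate basophilic erythroblasts 6.37, 5.52 and 5.97. In deficient proerythroblasts they were 5.90, 5.38 and 6.09, against 8.02, 7.66 and 7.30 in adequate proerythroblasts. The nearest basophilic arrays of the 2 diets, at 5.50 and 5.52, were almost equal. The diet difference was -1.87 ± 0.277 in proerythroblasts and -0.71 ± 0.277 in basophilic erythroblasts.

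Aldh1a7 encodes a cytosolic aldehyde dehydrogenase closely related to Aldh1a1 (chromosome 19, 20692953 to 20727556). It measured 6.42, 7.17 and 6.35 in deficient basophilic erythroblasts and 7.49, 7.60 and 7.46 in adequate basophilic erythroblasts. Deficient proerythroblasts measured 7.05, 6.74 and 6.41, against 8.44, 8.62 and 8.18 in adequate proerythroblasts. Neither stage had an overlap between the diets. The difference was -1.68 ± 0.226 in proerythroblasts and -0.87 ± 0.226 in basophilic erythroblasts.

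Sh2d4a had the largest fall in proerythroblasts among the genes that passed (chromosome 8, 68276528 to 68347704). Its levels were 5.52, 6.0 and 5.40 in deficient basophilic erythroblasts and 6.27, 6.16 and 6.07 in adequate basophilic erythroblasts. They were 5.75, 5.32 and 5.23 in deficient proerythroblasts, against 8.65, 8.37 and 8.10 in adequate proerythroblasts. The 9 arrays outside adequate proerythroblasts ran from 5.23 to 6.27. The difference was -2.94 ± 0.199 in proerythroblasts and -0.53 ± 0.199 in basophilic erythroblasts.

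The choice had a loose edge. Ranked by the fall in proerythroblasts among the 555 genes that passed as lower, Sh2d4a, Gatm and Mettl8 held the first 3 places. Kit at -2.18, Hsph1 at -2.12 and Myb at -2.06 came next and are not among the 10. Gpc4, Sfrp4, Adgrg7 and Gdpd1 held places 7 to 10, and Itga5 at -1.82, Tspan31 at -1.80 and Selenbp1 at -1.77 followed Gdpd1. C1qtnf12 ranked 15, Aldh1a7 19 and Prelid2 28, with Pigu at -1.47 and Dusp19 and Cd248 at -1.46 just beyond Prelid2. By the mean over both stages, among genes whose diets did not overlap at either stage, Aldh1a7 ranked 12 at -1.27, beside Tac2 at -1.27, Hsph1 at -1.25 and Tspan31 at -1.24.

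The diet difference was smaller in basophilic erythroblasts for all 10 genes, with a median of -0.63 beside 0.04 for all tested genes. In 7 of the 10 the deficient basophilic arrays lay wholly below the adequate ones, and 3.91% of all tested genes did so. Sfrp4, Adgrg7 and Prelid2 were the exceptions. None of the 10 passed limma's adjusted p of 0.05 for diet in basophilic erythroblasts, where 0.0199% of all tested genes passed, and 6 of the 10 had an unadjusted p under 0.05, beside 6.48% of all tested genes. Since this difference is a component of the mean over both stages, which was 1 of the 2 ways to choose a gene, these counts are a description. With the replicate number as a block within each stage, 3 passed: C1qtnf12 (adjusted p = 0.00939), Gpc4 (adjusted p = 0.0137) and Aldh1a7 (adjusted p = 0.037). That block called 1.45% of all tested genes. The same 3 passed without replicate 2 of both basophilic groups, with adjusted p of 0.0207 for C1qtnf12, 0.0197 for Gpc4 and 0.0268 for Aldh1a7, where 2.09% of all tested genes passed.

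The stage difference averaged over both diets, basophilic minus proerythroblast, uses the same arrays as the choice of genes. In this balanced design its sampling error is uncorrelated with that of both differences that chose the genes, apart from the shared estimate of spread. A gene high in adequate proerythroblasts alone would still be lower both by diet and by stage. The test is therefore not separate support, and on the deficient diet 4 of the 10 passed as lower, as given below. All 10 genes were lower in basophilic erythroblasts by this test, with adjusted p from 1.96e-07 to 0.0163. Of all tested genes, 32.5% passed as lower and 41.0% as higher. The median of the 10 was -1.25, beside 0.09 for all tested genes. With the level filter raised to 6.62, 11953 genes were left, Gpc4 not among them, and their median was -0.35. Of these, 2803 passed as higher and 5695 as lower. With no level filter the median of 30702 genes was 0.255, and 14468 passed as higher and 6753 as lower. The stage difference of all tested genes thus depended on the level filter. Without replicate 2 of both basophilic groups all 10 passed, and without the level filter, through which Adgrg7 had entered by its proerythroblast arrays alone, all 10 also passed.

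The stage change was graded across the 10. Prelid2 fell most, by 2.43 ± 0.116 (log2 and SE, adjusted p = 1.96e-07), and 0.174% of tested genes had a lower value. C1qtnf12 changed by -2.10 ± 0.184 (adjusted p = 4.28e-06), Adgrg7 by -1.91 ± 0.205 (adjusted p = 1.94e-05) and Gatm by -1.87 ± 0.229 (adjusted p = 5.12e-05). Between 0.566% and 1.21% of tested genes lay below these 3. Mettl8 changed by -1.37 ± 0.236, Gdpd1 by -1.13 ± 0.196, Sh2d4a by -1.0 ± 0.141 and Sfrp4 by -0.84 ± 0.155, all with adjusted p under 0.001. Gpc4 at -0.50 ± 0.163 (adjusted p = 0.0163) and Aldh1a7 at -0.49 ± 0.160 (adjusted p = 0.0156) changed least. For these 2 genes 27.6% and 27.8% of tested genes had a lower value.

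The stage comparison also depended on how the arrays were scaled. As deposited, 8251 genes passed as higher and 6544 as lower in basophilic erythroblasts. After centring each array on its median these counts were 5724 and 8174, and the median stage difference of all tested genes moved from 0.09 to -0.13. The most crowded interval of the stage difference held 4481 genes between 0.4 and 0.6. All 10 genes passed as lower after centring. After quantile normalization 9 did, since Aldh1a7 was at -0.28 (adjusted p = 0.217). For diet in proerythroblasts 255 genes passed as higher and 555 as lower as deposited, and 168 and 844 after centring, with all 10 genes passing as lower under both scalings.

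**Figure D2:**
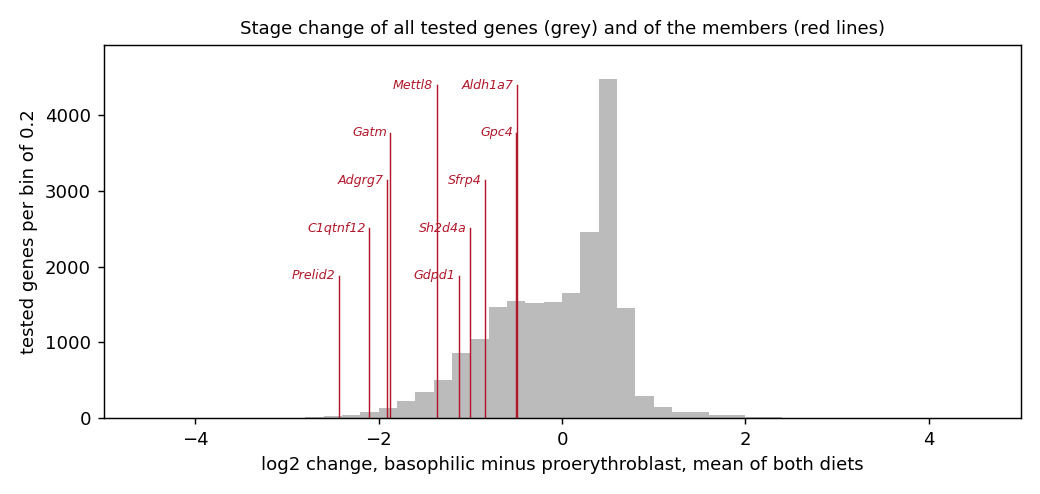
Number of tested genes (vertical axis) in intervals of 0.2 of the log2 stage difference, basophilic minus proerythroblast, averaged over both diets (horizontal axis, grey bars). Red lines place the 10 genes, which all lie below 0, from -2.43 for Prelid2 to -0.49 for Aldh1a7.

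The stage difference was then set out on each diet. These values share the proerythroblast arrays with the choice of genes and are descriptions. On the deficient diet the median stage difference of the 10 was -0.49, and on the adequate diet it was -2.25. The medians of all tested genes were 0.08 on the deficient diet and 0.12 on the adequate diet. On the deficient diet 4 of the 10 passed as lower (Gatm, Adgrg7, C1qtnf12 and Prelid2), where 24.9% of all tested genes did. On the adequate diet all 10 passed as lower, where 25.6% of all tested genes did. Aldh1a7 lost that call after quantile normalization (-0.59, adjusted p = 0.106). Gpc4 lost it with both of its features averaged (adjusted p = 0.065) and without adequate basophilic replicate 3 (adjusted p = 0.0504) or adequate proerythroblast replicate 1 (adjusted p = 0.0586) or 2 (adjusted p = 0.0632). Deficient basophilic arrays lay wholly below deficient proerythroblast arrays for 3 of the 10 (Gatm, C1qtnf12 and Prelid2), and 29.6% of all tested genes were so arranged. Adequate basophilic arrays lay wholly below adequate proerythroblast arrays for 9 of the 10, all but Gpc4, and 32.6% of all tested genes were so arranged.

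Sh2d4a shows the contrast between the diets most plainly. Its stage difference was 0.21 on the deficient diet and -2.21 on the adequate diet. Sfrp4 was at 0.04 on the deficient diet and -1.72 on the adequate diet, and Mettl8 at -0.43 on the deficient diet and -2.31 on the adequate diet. C1qtnf12 differed least, at -1.92 on the deficient diet and -2.29 on the adequate diet. Prelid2 was at -1.52 on the deficient diet and -3.35 on the adequate diet. The values near 0 on the deficient diet have no settled sign, since that of Sfrp4 was -0.15 after centring and -0.09 after quantile normalization.

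**Figure D3:**
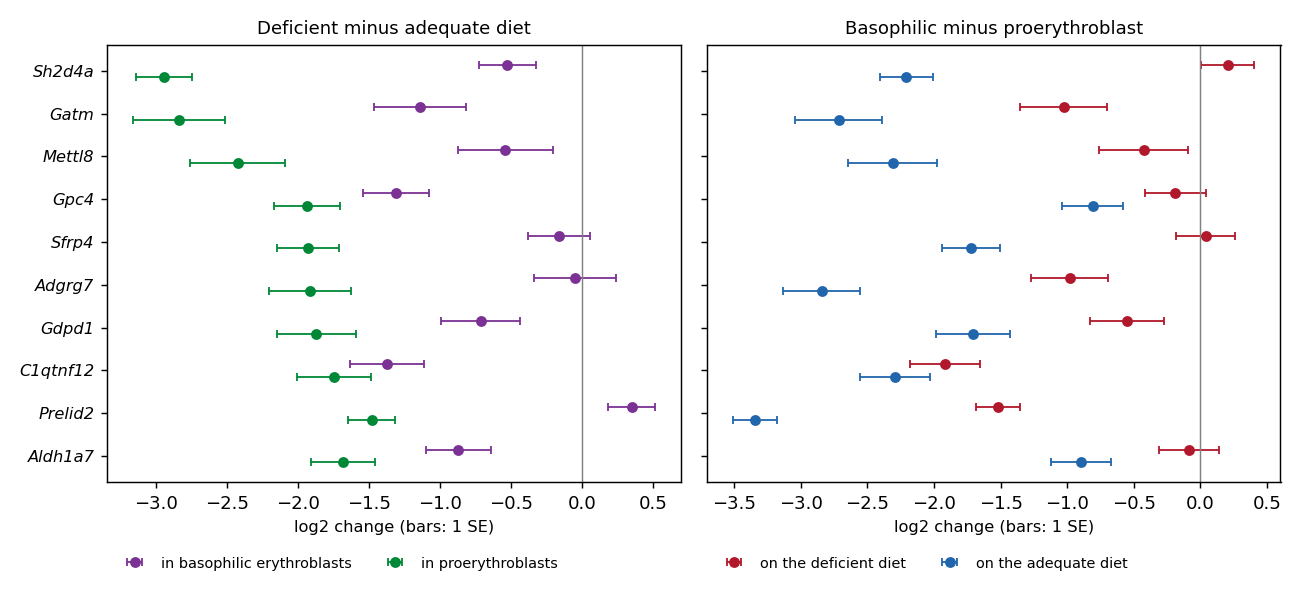
Left, the deficient minus adequate log2 difference of each gene in basophilic erythroblasts and in proerythroblasts. Right, the basophilic minus proerythroblast log2 difference on the deficient and on the adequate diet. Points are limma estimates with bars of 1 SE. Proerythroblast diet differences lie between -2.94 and -1.48, and stage differences on the adequate diet lie between -3.35 and -0.81.

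The diet by stage interaction, the basophilic diet difference minus the proerythroblast one, was positive for all 10 genes, from 0.38 for C1qtnf12 to 2.41 for Sh2d4a, with a median of 1.73 beside 0.03 for all tested genes. It contains the difference that chose the genes and is not independent of it. Sh2d4a, Prelid2 and Sfrp4 passed limma's adjusted p of 0.05, and 0.159% of all tested genes passed in that direction. Sfrp4 did not pass without the level filter (adjusted p = 0.0563) or after quantile normalization (adjusted p = 0.0802). With the replicate number as a block within each stage 5 passed, the added genes being Adgrg7 (1.86, adjusted p = 0.0372) and Gatm (1.69, adjusted p = 0.0417), and 1.51% of all tested genes passed in that direction.

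Diet and stage can also be compared through deficient proerythroblasts and adequate basophilic erythroblasts, the earlier stage on the deficient diet and the later stage on the adequate one. Deficient proerythroblast arrays overlapped or touched adequate basophilic arrays for 5 of the 10 genes: Gatm, Mettl8, Sfrp4, Gdpd1 and C1qtnf12. The same held for every tested gene outside the shares of 38.0% and 29.4% given below. The mean differences, deficient proerythroblast minus adequate basophilic, were -0.12 for Gatm, -0.11 for Mettl8, -0.20 for Sfrp4 and -0.16 for Gdpd1. For Sh2d4a at -0.73, Gpc4 at -1.12 and Aldh1a7 at -0.78 the deficient proerythroblast arrays lay wholly below, as they did for 38.0% of all tested genes. For Adgrg7 at 0.93 and Prelid2 at 1.87 they lay wholly above, as they did for 29.4% of all tested genes. C1qtnf12 was at 0.55, and its lowest deficient proerythroblast array only touched its highest adequate basophilic array, both at 9.71. These differences include the arrays that chose the genes and are not tested.

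Gatm was set beside Gamt, the enzyme that methylates guanidinoacetate to creatine in the step after it. Gamt measured 6.73, 7.32 and 6.58 in deficient basophilic erythroblasts and 6.54, 6.95 and 6.54 in adequate basophilic erythroblasts. It measured 6.17, 6.03 and 6.0 in deficient proerythroblasts, against 6.29, 6.28 and 6.27 in adequate proerythroblasts. Its diet difference in proerythroblasts was -0.21 (adjusted p = 0.83, limma), and with stage it was higher by 0.60 ± 0.131 (adjusted p = 0.00203), where Gatm was lower.

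Aldh1a7 was set beside Aldh1a1, which oxidises retinal to retinoic acid. Aldh1a1 measured 8.32, 9.84 and 8.57 in deficient basophilic erythroblasts and 9.46, 10.82 and 9.43 in adequate basophilic erythroblasts. It measured 8.30, 7.87 and 7.77 in deficient proerythroblasts, against 9.01, 8.80 and 8.59 in adequate proerythroblasts. Its diet difference was -0.82 ± 0.414 in proerythroblasts (adjusted p = 0.434, limma) and -0.99 ± 0.414 in basophilic erythroblasts (adjusted p = 0.71). Replicate 2 was the highest array of both basophilic groups, and without those 2 arrays the adjusted p was 0.0078 for the proerythroblast difference, at the same size, and 0.0316 for the basophilic difference, at -1.0. With stage Aldh1a1 was higher by 1.02 ± 0.293 (adjusted p = 0.00854), where Aldh1a7 was lower. That rise includes the replicate 2 arrays at 9.84 and 10.82. The other basophilic arrays ran from 8.32 to 9.46, and the proerythroblast arrays from 7.77 to 9.01. Whether probes of these close relatives share signal was not tested.

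Mettl8 was set beside Mettl2, which modifies the same base in cytosolic transfer RNAs. Mettl2 measured 7.31, 6.49 and 7.44 in deficient basophilic erythroblasts and 6.76, 6.27 and 6.78 in adequate basophilic erythroblasts. It measured 8.27, 8.29 and 8.25 in deficient proerythroblasts, against 8.25, 8.33 and 8.10 in adequate proerythroblasts. The proerythroblast arrays of the diets overlapped, with a difference of 0.04 (adjusted p = 0.998, limma). With stage Mettl2 was lower by a log2 change of -1.41 ± 0.160 (adjusted p = 2.94e-05), as Mettl8 was.

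**Figure D4:**
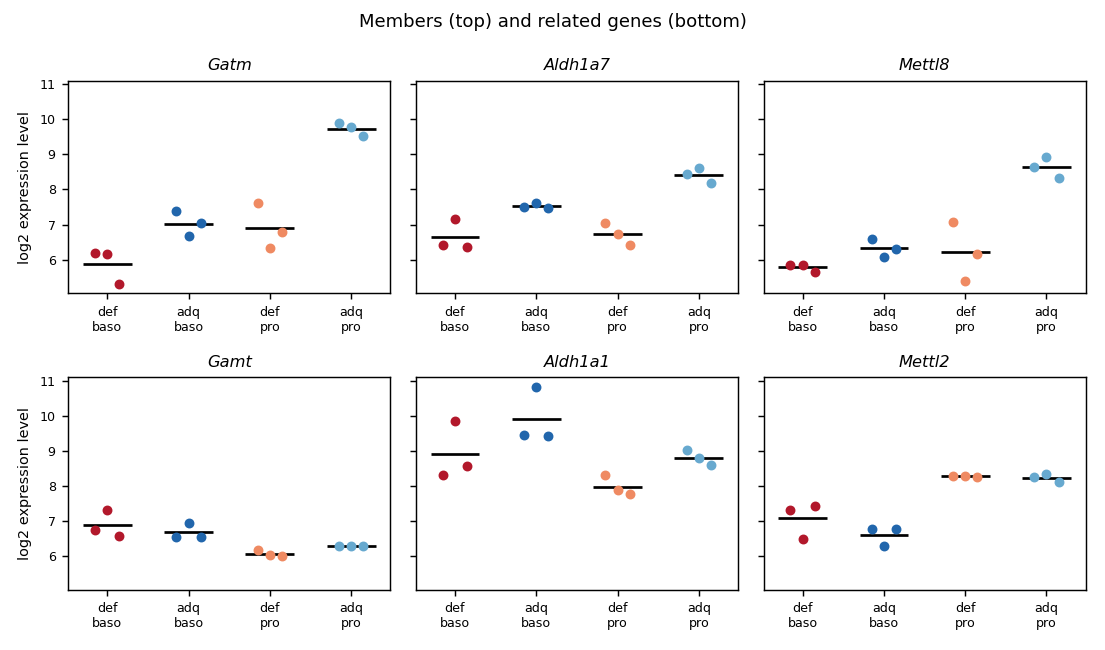
Deposited log2 level (vertical axis) in the 12 arrays of Gatm, Aldh1a7 and Mettl8 (top) and of Gamt, Aldh1a1 and Mettl2 (bottom), with 1 point per array and a line at each group mean. Adequate proerythroblasts are the highest group in the top panels, Gamt is higher in all basophilic arrays than in all proerythroblast arrays, the Aldh1a1 arrays of the stages overlap, and Mettl2 has nearly equal proerythroblast groups.

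Gdpd1 and Gpc4 each had a further feature on the array, and for Gdpd1 it differed from the one used. The other Gdpd1 feature had 5.38, 5.3 and 4.83 in deficient basophilic erythroblasts and 5.05, 5.38 and 5.20 in adequate basophilic erythroblasts. It had 5.10, 4.92 and 5.19 in deficient proerythroblasts, against 4.69, 4.74 and 4.58 in adequate proerythroblasts, a difference of 0.40 ± 0.159 (SE) in the opposite direction. Its stage difference averaged over both diets was also opposite, at 0.32 ± 0.112, where the feature used was at -1.13. On the adequate diet the stage difference of this other feature was 0.54 ± 0.159. With both of its features averaged, Gdpd1 had a proerythroblast diet difference of -0.73 (adjusted p = 0.0558, limma). Most other Gdpd1 feature values lay under 5.3.

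The other Gpc4 feature had 4.93, 5.55 and 4.84 in deficient basophilic erythroblasts and 5.51, 5.55 and 5.35 in adequate basophilic erythroblasts. It had 5.07, 5.01 and 4.81 in deficient proerythroblasts, against 5.68, 5.68 and 5.32 in adequate proerythroblasts. The direction was that of the feature used, and the size was smaller, at -0.60 ± 0.185 (SE). Its stage difference was 0.03, and with the mean of both features the stage difference of Gpc4 was -0.24 (adjusted p = 0.135, limma).

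**Figure D5:**
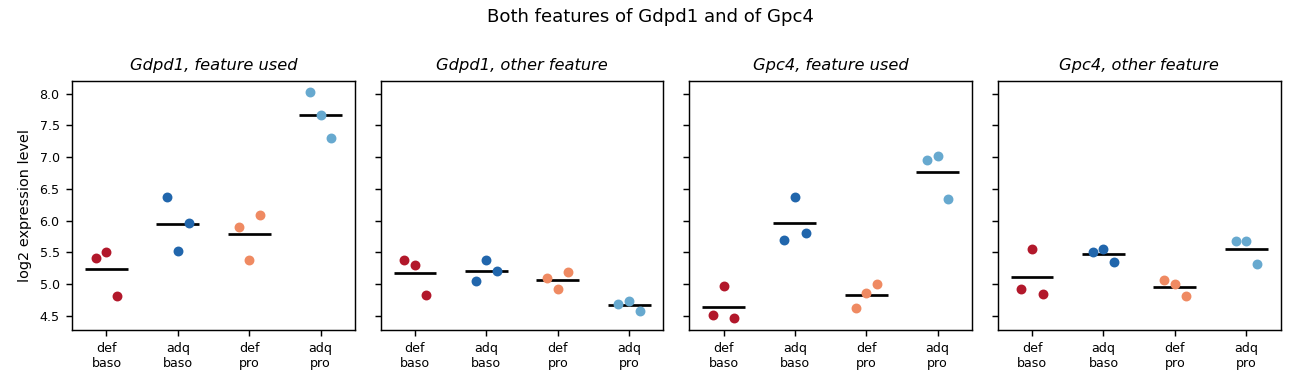
Deposited log2 level (vertical axis) of both array features of Gdpd1 (left pair) and Gpc4 (right pair) in the 12 arrays, with 1 point per array and a line at each group mean. Deficient proerythroblasts are lower than adequate ones for both Gpc4 features and for the Gdpd1 feature used, and higher for the other Gdpd1 feature.

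The pathways of the 10 genes were read through lists that leave those genes out. Of the 172 list genes tested, 12 passed limma's adjusted p of 0.05 for diet in proerythroblasts, where 4.02% of all tested genes passed. For diet in basophilic erythroblasts none passed, 12 had an unadjusted p under 0.05 (6.98%), and 6.48% of all tested genes did. With stage averaged over both diets, 41.0% of all tested genes passed as higher and 32.5% as lower.

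In the creatine and arginine list of 10 tested genes, 1 rose and 1 fell with the deficient diet in proerythroblasts, with a median of 0.07. Azin1, which protects ornithine decarboxylase from breakdown, rose by 1.11 ± 0.123 (adjusted p = 0.000855), and Oat, which converts ornithine towards proline and glutamate, fell by 1.11 ± 0.156 (adjusted p = 0.00247). With stage, 8 rose and 2 fell: Azin1 was higher by 1.22 and Oat changed by -1.82.

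Among 23 transfer RNA methylation genes beside Mettl8, none rose and 2 fell with the deficient diet in proerythroblasts, with a median of -0.26. They were Dalrd3 at -0.87 (adjusted p = 0.0397) and Trmt10b at -0.68 (adjusted p = 0.0493), and Trmt10b did not pass after centring (adjusted p = 0.0583) or quantile normalization (adjusted p = 0.105). After centring Sars2, the mitochondrial seryl-tRNA synthetase, also passed, at -0.54 (adjusted p = 0.0265). With stage 20 of the 23 fell and none rose, with a median of -0.69 beside 0.09 for all tested genes. They included Nsun2 at -2.04 ± 0.167, Trmt5 at -1.83 ± 0.123, Trmt6 at -1.25 ± 0.089 and Mettl1 at -1.10 ± 0.096, which methylate transfer RNAs at other positions. The count was 23 after centring, 15 after quantile normalization and 21 without replicate 2 of both basophilic groups.

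Among 15 genes of PRELI proteins and cardiolipin synthesis beside Prelid2, 1 fell with the deficient diet in proerythroblasts. It was Crls1, the cardiolipin synthase, at -0.93 ± 0.233 (adjusted p = 0.0481), which did not pass after centring (adjusted p = 0.0638) or quantile normalization (adjusted p = 0.0925). Under these scalings Tamm41 passed in its place, at -0.70 after centring (adjusted p = 0.0461) and -0.62 after quantile normalization (adjusted p = 0.0436). With stage 10 of the 15 fell and 1 rose, with a median of -0.84. Crls1 fell by 2.33 ± 0.164 (adjusted p = 1.05e-06). Tamm41 at -1.40 and Ptpmt1 at -1.07, which act before it in cardiolipin synthesis, and the prohibitin Phb2 at -1.31 also fell. After quantile normalization 9 fell and 2 rose.

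Among 19 heparan sulfate genes beside Gpc4, 1 fell with the deficient diet in proerythroblasts: Ext2, a polymerase of the sugar chain, at -0.58 ± 0.130 (adjusted p = 0.0287). After quantile normalization Hs6st1 also passed, as higher, at 0.79 (adjusted p = 0.0402). With stage 9 rose and 2 fell, and after centring 4 rose and 4 fell. Of 22 extracellular Wnt genes beside Sfrp4, none passed for diet in proerythroblasts, with a median of -0.01, and 1 (Fzd5, a Wnt receptor, at 0.51, adjusted p = 0.0191) rose after quantile normalization. With stage 17 of the 22 rose and 2 fell, Znrf3 at -1.2 and Ryk at -1.19, and 12 rose and 3 fell after centring. Their median stage difference was 0.50, and 41.0% of all tested genes passed as higher.

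Among 17 adhesion receptors beside Adgrg7, 1 rose and 2 fell with the deficient diet in proerythroblasts. Adgrg2 rose by 2.79 ± 0.245 (adjusted p = 0.00025). Adgrl2, a latrophilin, fell by 1.2 ± 0.150 (adjusted p = 0.00152), and Celsr1 was at -0.69 (adjusted p = 0.0314, and 0.0649 after quantile normalization). After centring Adgrl1 also fell, at -0.60 (adjusted p = 0.018). Adgrg2 and Adgrg7 thus moved in opposite directions with diet, and both were lower with stage, Adgrg2 by a log2 change of -0.99 ± 0.173 (adjusted p = 0.000606). With stage 9 rose and 3 fell, and after centring 6 rose and 6 fell.

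Among 29 aldehyde and retinoid genes beside Aldh1a7, 1 rose and 1 fell with the deficient diet in proerythroblasts. Dhrs3, which reduces retinal, rose by 1.69 ± 0.364 (adjusted p = 0.023, and 0.0537 after centring), and Aldh18a1, an enzyme of proline synthesis, fell by 1.2 ± 0.168 (adjusted p = 0.00246). After centring Aldh7a1 also fell, at -0.59 (adjusted p = 0.0294). With stage 17 rose and 6 fell, and after centring 12 of 26 rose and 8 fell. Of 13 genes of lysophospholipid and acylethanolamine breakdown beside Gdpd1, Gpcpd1, a glycerophosphocholine phosphodiesterase, rose by 1.25 ± 0.236 with the deficient diet in proerythroblasts (adjusted p = 0.0121). With stage it rose by 1.91 ± 0.167, and 7 of the 13 rose and 3 fell.

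None of 11 genes of the C1q-related family beside C1qtnf12 and none of 13 SH2 adaptors beside Sh2d4a passed for diet in proerythroblasts, and after centring the adaptor Sh2b1 fell, at -0.41 (adjusted p = 0.0339). With stage all 11 of the family rose, by a median of 0.53, also after centring (0.33) and quantile normalization (0.41), and C1qtnf12 fell. Of all tested genes 41.0% passed as higher. The family median of 0.53 lay in their most crowded interval, from 0.4 to 0.6, which held 4481 genes. Of the SH2 adaptors 6 rose and 1 fell with stage, and after centring 5 rose and 3 fell.

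The list counts for diet in proerythroblasts depended on the basophilic arrays through the shared estimate of spread. Without replicate 2 of both basophilic groups 16.3% of all tested genes passed, in place of 4.02%, with 9.37% as lower and 6.97% as higher. Then 6 of the 23 transfer RNA methylation genes fell, 3 of the 15 cardiolipin genes and 5 of the 29 aldehyde and retinoid genes. So did 3 of the 17 adhesion receptors, and 1 each of the 10 creatine, 19 heparan sulfate and 13 SH2 adaptor genes. In the same setting 3 creatine genes rose, 2 heparan sulfate genes, 2 aldehyde and retinoid genes, 2 of the lysophospholipid genes, and 1 each of the Wnt, adhesion receptor and SH2 adaptor genes. None of the C1q-related family passed. Of the erythroid identity genes 8 rose, and of the progenitor genes 6 fell. Of the neutrophil genes 3 rose, and of the megakaryocyte genes 3 rose.

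Markers of maturity moved in the same arrays as the 10 genes. For diet in proerythroblasts, 7 of the 15 erythroid identity genes rose and none fell, with a median of 0.63. They included Alas2 at 1.67, the first enzyme of haem synthesis in red cells, Slc4a1 at 1.39, the anion exchanger, and Sptb at 1.03, a spectrin. After centring 5 passed, since Nfe2 (adjusted p = 0.0504) and Tfrc (adjusted p = 0.104) did not. Of 15 progenitor genes 4 fell and none rose: Kit at -2.18, Myb at -2.06, Cdk6 at -1.36 and Sox4 at -0.88. The mean log2 level of the progenitor list lay between 6.96 and 7.20 in deficient proerythroblast arrays, against 7.41 to 7.70 in adequate proerythroblast arrays. With stage 9 of the 15 erythroid identity genes rose and none fell, with Alas2 at 1.89 and Slc4a1 at 1.07, and after centring 7 rose and 1 fell. Of the 15 progenitor genes 7 fell with stage and 4 rose, with a median of -0.19. Cdk6 at -2.74, Myb at -2.28 and Kit at -1.69 were among those that fell, and Lmo2 at 0.80, Lyl1 at 0.78, Mycn at 0.74 and Erg at 0.39 were the 4 that rose. The part of maturity in the diet difference of the 10 genes was not tested.

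Markers of other spleen cells were measured beside the same contrast. Of 16 macrophage genes none passed for diet in proerythroblasts, and the list's mean level lay between 5.81 and 6.52 in deficient proerythroblast arrays, against 5.62 to 6.64 in adequate proerythroblast arrays. Of 18 neutrophil genes Mmp9 passed at 0.57 (adjusted p = 0.0373, and 0.0925 after quantile normalization), and the list's mean level lay between 6.62 and 7.39 in deficient proerythroblast arrays, against 6.19 to 7.21 in adequate ones. Of 12 tested genes of stroma and endothelium none passed, and the level was 5.22 to 5.25 in deficient proerythroblast arrays, against 5.12 to 5.23 in adequate ones. Of 7 megakaryocyte genes Thbs1 at 0.87 and Itga2b at 0.75 rose, Itga2b not after centring (adjusted p = 0.108). None of 9 B cell, 8 T and natural killer cell or 5 mast cell and basophil genes passed. With stage averaged over both diets, 9 of the 18 neutrophil genes fell and 2 rose. Of the 12 genes of stroma and endothelium 11 rose and none fell. Among the macrophage genes 5 rose, among the megakaryocyte genes 4 rose and 1 fell, and 2 B cell genes fell. Of the T and natural killer cell genes 1 rose, and of the mast cell and basophil genes 2 rose. Of all tested genes 41.0% passed as higher and 32.5% as lower. The part of these cells in the diet and stage differences was not tested.

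Across the 12 arrays the 10 genes ran together, with Pearson's r from 0.515 to 0.980 over the 45 pairs and a median of 0.892. These correlations rest on 4 groups that the choice of genes already separates and carry no p. Among all tested genes, Atp7b, a copper-transporting ATPase, was the closest to Gatm (r = 0.992) and the next closest to Mettl8 (r = 0.981) and Gdpd1 (r = 0.978). Its diet difference was -1.54 in proerythroblasts and -0.47 in basophilic erythroblasts. The closest genes to Sh2d4a were Rad52 (r = 0.982) and Sfrp4 (r = 0.980), and those to Sfrp4 were 9530077C05Rik (r = 0.987) and Sh2d4a.

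Gpc4 was closest to Aldh1a7 (r = 0.942) and then to Ogfrl1 (r = 0.934), and Aldh1a7 to Myo18a and Zbtb46 (r = 0.964 for both). Mettl8 was closest to Jmjd8 (r = 0.990), Gatm next to Rbms2 (r = 0.984) and Gdpd1 to Naxe (r = 0.978). Adgrg7 was closest to Zdhhc2 (r = 0.993) and Oxct1 (r = 0.990), C1qtnf12 to Minpp1 and Ldb1 (r = 0.981 for both), and Prelid2 to D16Ertd472e (r = 0.994) and Lap3 (r = 0.993). Prelid2 and Adgrg7, with their near relatives here, had diet differences in basophilic erythroblasts near or above 0, from -0.08 for Oxct1 to 0.35 for Prelid2. This was not particular to them, since 9530077C05Rik, the closest to Sfrp4, was at -0.04.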

How the data were processed

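Total RNA (5 ng an array) from 12 sorted samples was labelled with the Affymetrix WT Pico kit, per the labels' protocols. The values are on a log2 scale as deposited by the authors, from Affymetrix Expression Console per the submitters' processing notes. Its version, background correction and normalization are not given in the sources used here. No array was reprocessed, and no detection call was used here, so dim values near the array's background have less room to differ. The number of arrays, 3 a group, limits the precision.

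Of 72688 features, 31258 named 1 gene, 1492 several and 39938 none in the platform annotation. Symbols of 1789 features were updated through RefSeq. For the 441 genes with several features the one with the highest mean was used. Genes above 5.3 in at least 3 arrays (20128) entered a limma model (limma 3.58.1, R 4.3.3) of 4 group means over all 12 arrays, with eBayes defaults. The Benjamini-Hochberg adjustment ran over all of them at a threshold of 0.05. Tables were prepared with python 3.11.15, and the fit was tested on simulated data. A gene is said to rise or fall where it passed. Promoters, start sites and gene coordinates are RefSeq's (GRCm38.p6).

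Samples were grouped by title. The genes, their lists and the tests were chosen with earlier results of these data known. The text names the 10 genes, the 2 genes most like each over the 12 arrays, each list gene that passed for diet in proerythroblasts, up to 4 genes of a list with the smallest p, Gamt, Aldh1a1 and Mettl2, and the genes next in rank of the choice. The 4 progenitor genes that rose with stage were named after their values were seen. So were Tamm41, Sars2, Fzd5, Sh2b1, Hs6st1, Adgrl1 and Aldh7a1, for diet under another scaling. Replicate numbers in the titles were checked as pairs by correlating deviations from group means. Within a stage same-numbered arrays of the 2 diets correlated at 0.717, 0.782 and 0.540 in basophilic erythroblasts and at 0.457, 0.180 and 0.524 in proerythroblasts. Differently numbered basophilic pairs correlated at 0.598 and 0.513 without replicate 2, and from -0.76 to -0.571 with it. The basophilic values thus set replicate 2 apart and cannot show that replicates 1 and 3 are pairs. In proerythroblasts differently numbered pairs ran from -0.395 to 0.08. Across stages the same-numbered correlations went down to -0.165. A block within stage was given beside results whose call it changed. Alternatives were no level filter, a filter at 6.62, quantile normalization, median centring, trended variance, array weights, replicate blocks, the mean of a gene's features, arrays of the contrast alone, and leaving out arrays.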

Additional observations from a re-analysis of the deposited data

Results flagged for a closer look

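For 3 of the 10 genes the diet difference in basophilic erythroblasts differed from that in proerythroblasts by limma's interaction test. Sh2d4a had an interaction of 2.41 ± 0.282 (SE, adjusted p = 0.00594), from a diet difference of -0.53 in basophilic erythroblasts and -2.94 in proerythroblasts. Prelid2 had 1.83 ± 0.232 (adjusted p = 0.00878), from 0.35 in basophilic erythroblasts and -1.48 in proerythroblasts. Sfrp4 had 1.76 ± 0.310 (adjusted p = 0.0464), from -0.16 in basophilic erythroblasts and -1.93 in proerythroblasts. The genes were chosen on the proerythroblast difference, which is contained in the interaction, so these values are not independent of the choice. Sfrp4 did not pass when any of 10 of the 12 arrays was left out, with adjusted p up to 0.166.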

How the results depend on the processing

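All values refer to the 10 genes. For diet in basophilic erythroblasts 0 passed as deposited (4 of all tested genes), 2 after quantile normalization (50 of all), 1 with array weights (155), 2 with a replicate block over all arrays (19), 3 with a replicate block within stage (292) and 3 without replicate 2 of both basophilic groups (420). Leaving out 1 array gave 0 to 2, where 0 to 289 of all tested genes passed. For stage on the deficient diet 4 passed (11270 of all tested genes in either direction) and 2 with arrays of the contrast only (2918). When 1 array was left out 2 to 5 passed (4952 to 12415 of all). The count was 2 without deficient proerythroblast replicate 1 (6848 of all) or 3 (4952). For the interaction 3 passed, and 5 with the replicate block within stage (589 of all tested genes, against 61 as deposited). When 1 array was left out 2 to 3 passed (12 to 282 of all). For stage on the adequate diet 9 to 10 passed when 1 array was left out (5613 to 14336 of all tested genes). For stage averaged over both diets all 10 passed whichever array was left out (13852 to 15285 of all tested genes). For diet over both stages 8 to 10 did (245 to 1503 of all tested genes), the losses being Adgrg7 and Prelid2. Signs turned for Sfrp4 with stage on the deficient diet (-0.088 after quantile normalization, -0.153 after centring, -0.183 with array weights and without both basophilic replicate 2 arrays, and -0.183 to 0.197 over single arrays left out), Aldh1a7 with stage on the deficient diet (0.039 after quantile normalization, -0.348 to 0.072 over single arrays left out), Mettl8 with stage on the deficient diet (-0.842 to 0.008) and Adgrg7 with diet in basophilic erythroblasts (-0.233 to 0.177). No value with a turned sign passed. The replicate block changed no other call. Gpc4 was not tested under the filter at 6.62. Over all tested genes, diet in proerythroblasts called 810 genes, 2233 with the replicate block within stage, 8008 with array weights, 2416 with arrays of the contrast only, 3288 without both basophilic replicate 2 arrays, and 314 to 1806 when 1 array was left out (314 without adequate proerythroblast replicate 1, 341 without replicate 2, 323 without deficient proerythroblast replicate 3, 454 without replicate 2 and 1806 without deficient basophilic replicate 2). Leaving out basophilic arrays left the proerythroblast diet differences unchanged and altered only the shared estimate of spread. Why that spread changed, and the cause of the other changes, was not tested. Of 1573 results under an alternative, 1499 kept their direction and their side of the threshold, 43 lost their call, 18 gained one and 13 changed sign.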
